A study of Saccharomyces cerevisiae with 3 samples.

Results

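The genes described here are the 33 that encode the enzymes of glycolysis, ethanol and acetate formation, the first step of glycerol formation and the 2 key steps of gluconeogenesis in baker's yeast, including the enzymes that make and break fructose-2,6-bisphosphate. They were chosen by name, as every probe set whose annotated gene symbol contains one of the 33. That gave 38 of the 9275 probe sets that are not controls. Of these, 34 are annotated to 1 gene and 4 to several genes, and 32 of the 33 genes have a probe set of their own. TDH2 is read only together with its copies.

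RNA came from Saccharomyces cerevisiae S288c, the reference laboratory strain, after 5 h of growth with 15 µM tomatidine, with 7.5 µM tomatidine, or with the solvent dimethylformamide (DMF) alone. All 3 groups received DMF. Tomatidine is a steroidal alkaloid of tomato plants. Each group is 1 Affymetrix array, so there is no replicate and no test, the number of arrays limits the precision, and every difference is a description of these arrays. A bulk culture cannot tell a change in every cell from a change in some of them. The labels give no medium, growth phase or carbon source.

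Glycolysis splits hexoses into pyruvate and yields ATP, and yeast with ample glucose turns most of that pyruvate into ethanol even in air. Many steps have a pair of isozymes, of which one is made in bulk during growth on glucose and the other is expressed more strongly on poor carbon sources or under stress. The messenger RNAs of the bulk enzymes are among the most abundant of the cell. Gcr1, Gcr2, Rap1 and Tye7 are known activators of these genes. Genes of gluconeogenesis and of ethanol use are known to be silenced while glucose is present.

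Signals are given on a linear intensity scale after each array was brought to the same median. Signals at or under 18.2, the 40th percentile of all scaled signals, were treated as not measurable, and this value served as a floor. Of 5656 genes, 4723 passed the floor on 1 or more arrays and are called measured. Signals of different probe sets depend on the probes and are not compared as RNA levels. A difference was called at 2-fold or more, and a smaller one was listed at 1.5-fold or more. As a yardstick in place of replicates, log2 ratios were compared between probe sets that read 1 gene. Their pooled SD was 0.38 for 15 µM over control, 0.34 for 7.5 µM over control and 0.29 between the doses, over 178, 181 and 180 genes. It covers the probes and not differences between cultures.

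Of the 32 genes with their own probe set, 30 were measured, 29 of them on all 3 arrays. The signal of GPM2 passed the floor only at 15 µM, and FBP1 and PCK1 were under it everywhere. At 15 µM, 2 of 30 measured genes were at least 2-fold higher than in the control, ENO1 and PFK26, against 2.73% of all measured genes. None was 2-fold lower, against 1.14%. At 7.5 µM, 1 of 30 was at least 2-fold higher, ENO1, against 1.99%, and none was 2-fold lower, against 0.614%. Between the doses none reached 2-fold, against 0.72% of all measured genes higher and 0.296% lower at 15 µM.

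**Figure D1:**
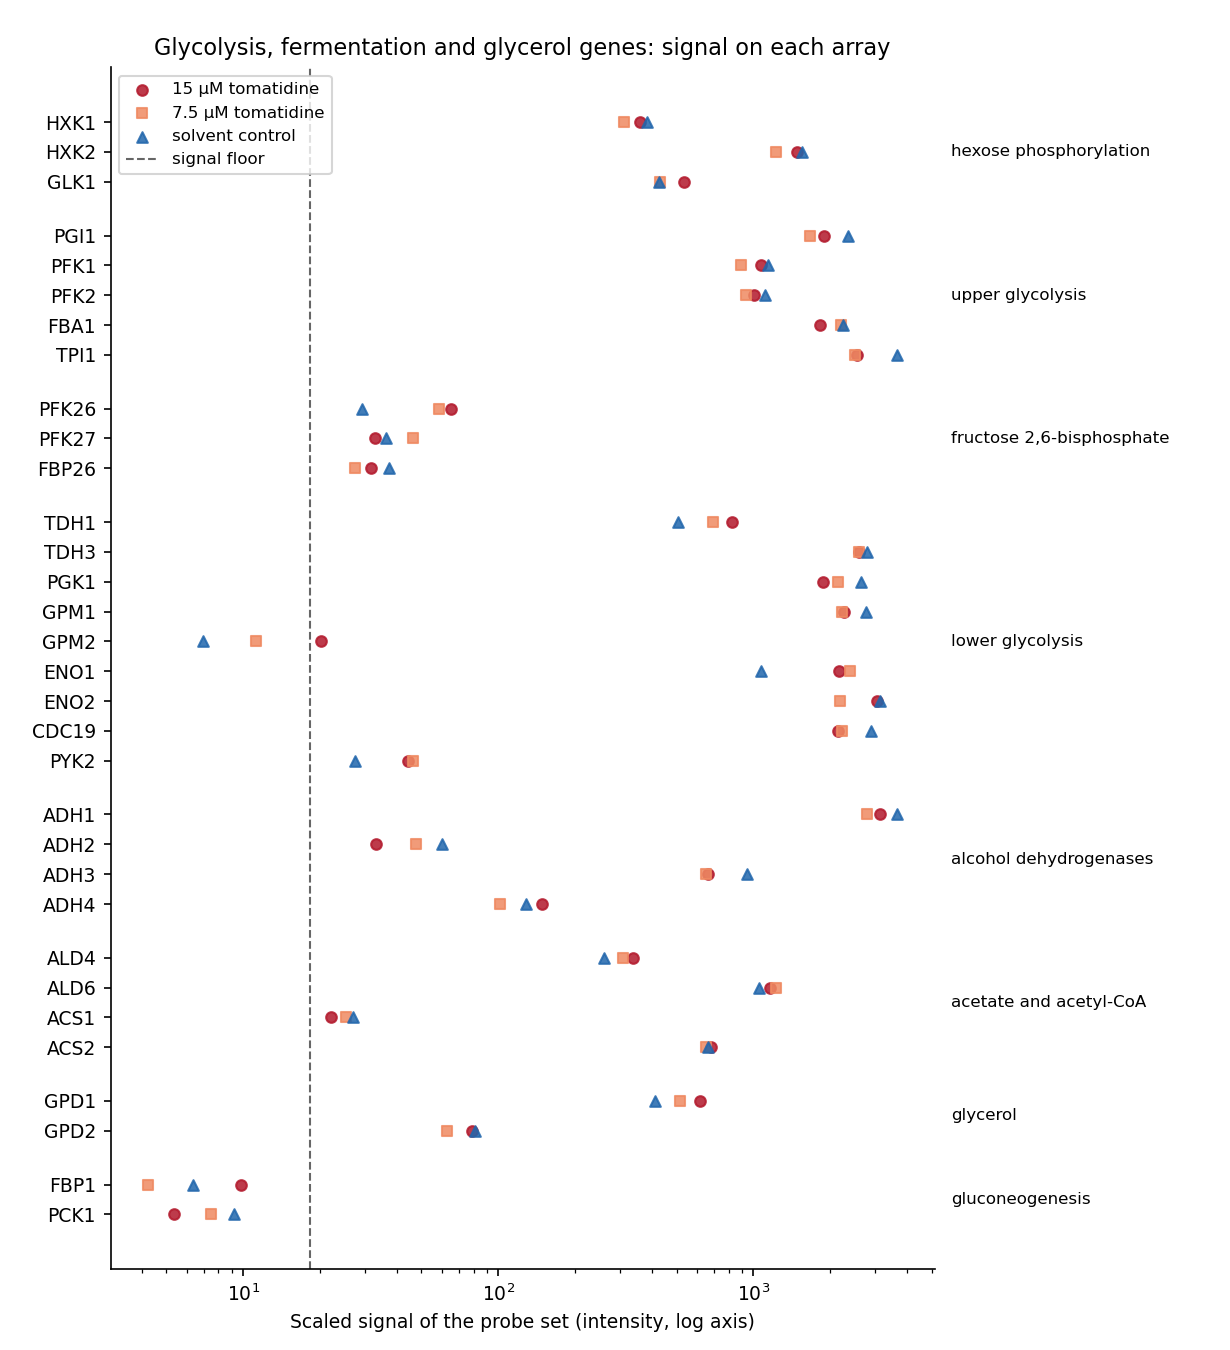
Scaled signal (intensity, log axis) of the probe set of each of 32 genes on the 3 arrays, ordered by role, with 1 point per array and the signal floor of 18.2 as a dashed line. The control point lies to the left of both tomatidine points for PFK26, TDH1, ENO1, PYK2, ALD4, GPD1 and others, and to their right for TPI1, ADH2, ADH3 and others, while both gluconeogenic genes lie left of the floor.

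At 1.5-fold or more the picture at 15 µM was 5 higher, PFK26, TDH1, ENO1, PYK2 and GPD1, and 1 lower, ADH2, against 8.26% and 6.9% of all measured genes. At 7.5 µM 3 were higher, PFK26, ENO1 and PYK2, and none was lower, against 8.62% and 5.21%. Between the doses none differed by 1.5-fold, against 4.07% higher and 3.09% lower at 15 µM. Both ratios to the control use the same control array, so they are not independent of each other.

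The median log2 ratio of the 30 genes was -0.09 at 15 µM, with 19 below 0, and -0.27 at 7.5 µM, with 20 below 0. Over all measured genes the median was -0.03 at each dose, with 2473 of 4723 genes below 0 at 15 µM and 2538 at 7.5 µM. The direction of the gene group depended on the scaling at 15 µM. Its median was 0.12 after lowess centring, which subtracts from each ratio the trend of all genes at the same signal, and 0.10 after quantile normalisation. With the values as deposited it was 0.01, beside 0.05 over all measured genes, a difference of -0.04. At 7.5 µM the group's medians under these scalings were -0.05, -0.01 and -0.19, the last beside 0.03 over all measured genes. Lowess centring turned the sign of 8 of the 30 genes at 15 µM (HXK1, HXK2, PFK1, PFK2, TDH3, GPM1, ENO2 and ADH1) and of 3 at 7.5 µM (FBA1, TDH3 and ACS2). Scaling on 8 bacterial and phage spike probe sets shifted the median of all measured genes to 0.75 at 15 µM and 0.60 at 7.5 µM, and the group then stood at 0.74 and 0.39. Relative to all genes under that scaling, the group's median was -0.01 at 15 µM and -0.20 at 7.5 µM.

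Most of these genes are very bright, and bright genes in general differed between the arrays. Of the 30, 19 were among the 473 brightest measured genes and 15 among the 237 brightest. Among those 237, the 222 genes outside the group had a middle log2 ratio of -0.23 at 15 µM and -0.21 at 7.5 µM, with 76.1% and 74.8% of them below 0. The 15 listed genes there had medians of -0.22 and -0.33, with 13 of 15 below 0 at each dose. In the 9 dimmer bins, of 472 or 473 genes each, the median of all genes stayed between -0.05 and 0.02 at 15 µM and between -0.07 and 0.01 at 7.5 µM. Between the doses the 222 bright genes had a median of -0.03 and the 15 listed ones 0.03. The 15 listed genes among the 237 thus had about the median of the others at 15 µM and a lower one at 7.5 µM. Among the 473 brightest, the 19 listed genes had medians of -0.10 at 15 µM and -0.29 at 7.5 µM. The 454 others had -0.21 and -0.18, so there the listed genes were higher at 15 µM. What sets the trend with signal was not tested.

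**Figure D2:**
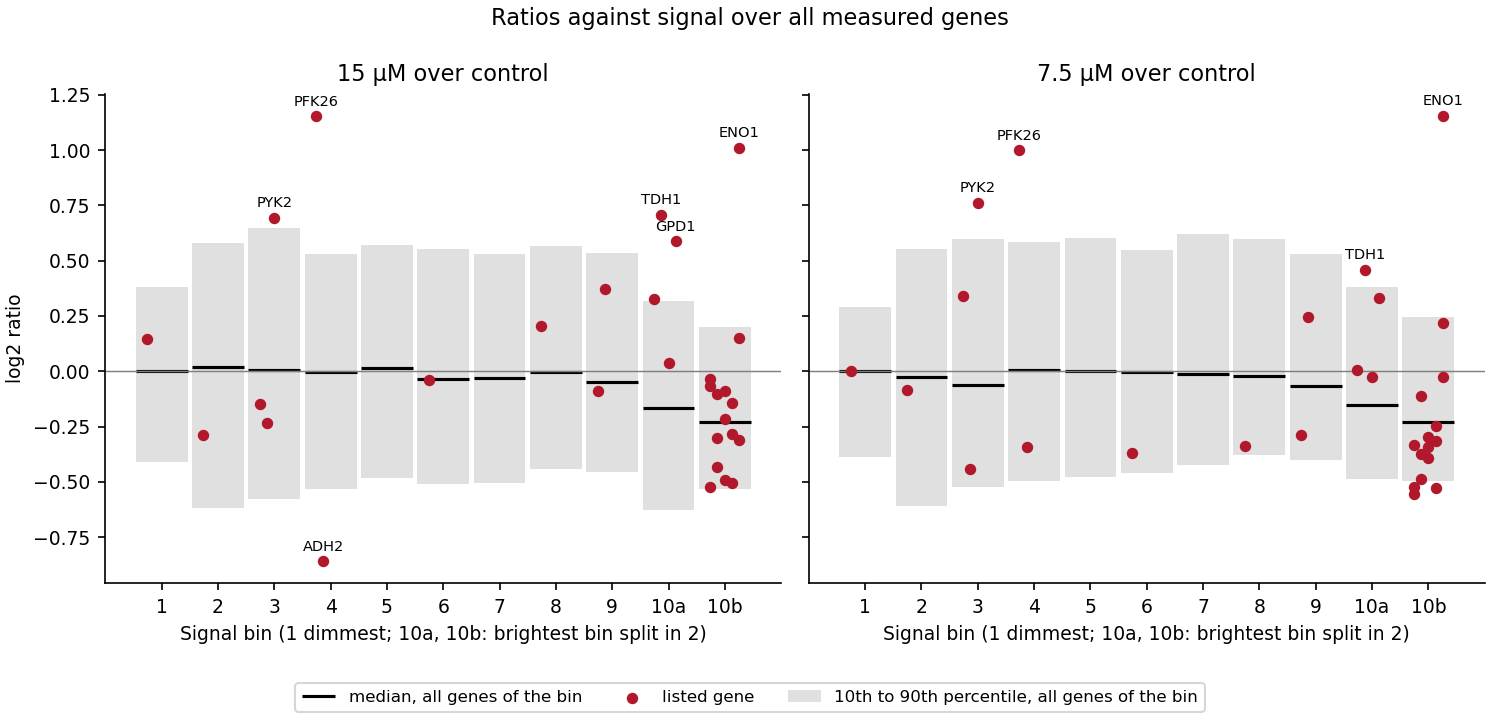
log2 ratio over control against signal, with measured genes in 10 bins of equal number by mean signal and the brightest bin split in 2. Grey bars run from the 10th to the 90th percentile of all genes of a bin, black lines are medians, and red points are the listed genes, spread sideways for legibility. The bin medians fall to -0.23 in the brightest bin at both doses. There the listed genes lie on both sides of the line at 15 µM and mostly below it at 7.5 µM. ENO1 lies far above it at both doses, and ALD6 lies 0.38 and 0.45 above it.

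Set against genes of like signal, 23 of the 30 lay between the 10th and 90th percentile of their bin at 15 µM. GLK1, PFK26, TDH1, ENO1, PYK2 and GPD1 lay above and ADH2 below. At 7.5 µM 23 were again inside, PFK26, TDH1, ENO1 and PYK2 lay above, and TPI1, ENO2 and ADH3 lay below. Of all measured genes, 79.7% lay inside these limits at each dose. Against the SD between probe sets, 5 of 30 were further above 0 and 5 further below at 15 µM, beside 16.03% and 17.2% of all measured genes. At 7.5 µM these were 4 and 8, beside 17.6% and 18.2%.

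The first step of glycolysis, the phosphorylation of hexoses, is carried out by the hexokinases Hxk1 and Hxk2 and the glucokinase Glk1. HXK2, the main hexokinase gene on glucose, had signals of 1477 at 15 µM, 1229 at 7.5 µM and 1547 in the control. HXK1 had 358, 312 and 381 on the same arrays. In both, the 7.5 µM array was lowest. Their log2 ratios at 15 µM were -0.07 and -0.09, and 0.18 and 0.01 after centring. GLK1 had 536, 429 and 427, so that only 15 µM stood apart. Its log2 ratio at 15 µM was 0.33, 23rd from the top of 236 genes in its signal bin, and 0.45 after lowess centring. A second probe set, annotated to GLK1 and the overlapping YCL042W together, read 144, 118 and 89.5, a log2 ratio of 0.69 at 15 µM and 0.40 at 7.5 µM. No gene of this step reached 1.5-fold on its own probe set.

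In upper glycolysis all 5 genes lay below 0 at each dose, with medians of -0.30 at 15 µM and -0.34 at 7.5 µM, but none was 1.5-fold lower. With lowess centring the medians were -0.02 and -0.16, and 2 and 1 of the 5 lay above 0. TPI1, triose phosphate isomerase, was lowest in relative terms, with signals of 2553 at 15 µM, 2500 at 7.5 µM and 3667 in the control. Its log2 ratios were -0.52 and -0.55, beyond the SD between probe sets, and -0.21 and -0.26 after centring, within it. PGI1, phosphoglucose isomerase, had 1900, 1670 and 2341, again highest in the control.

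The subunits of phosphofructokinase, the enzyme of the committed step, had similar ratios. PFK1 had signals of 1070, 897 and 1138 at 15 µM, 7.5 µM and in the control, and PFK2 had 1004, 936 and 1110. Their log2 ratios differed from each other by 0.06 at 15 µM and -0.10 at 7.5 µM (PFK1 minus PFK2), well inside the yardstick. FBA1, the aldolase gene, had 1817, 2209 and 2252, lowest at 15 µM. Its log2 ratios were -0.31 and -0.03, and -0.04 and 0.24 after centring, so which tomatidine array stood apart from the control depended on the scaling.

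Fructose-2,6-bisphosphate is a signalling metabolite that activates phosphofructokinase and inhibits fructose-1,6-bisphosphatase. It is made by the kinases Pfk26 and Pfk27 and removed by the phosphatase Fbp26. PFK26 had signals of 65.0 at 15 µM, 58.5 at 7.5 µM and 29.3 in the control. Both tomatidine arrays were above the control, by 2.22-fold at 15 µM and by 1.999-fold at 7.5 µM, just short of the call. It ranked 13th of 472 genes in its signal bin at 15 µM and 15th at 7.5 µM. The control signal is close to the floor, and with the floor at the 60th percentile the log2 ratios were 0.51 and 0.36 in place of 1.15 and 0.999.

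The isozyme gene PFK27 differed less. Its signals were 32.9, 46.2 and 36.4 at 15 µM, 7.5 µM and in the control, with log2 ratios of -0.15 and 0.34. FBP26 had 31.7, 27.4 and 37.3, lowest at 7.5 µM with a log2 ratio of -0.44. At 15 µM the ratio of PFK26 exceeded that of PFK27 by 1.30 log2 units and at 7.5 µM by 0.66. All 3 genes are dim, and each was above the floor on every array.

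**Figure D3:**
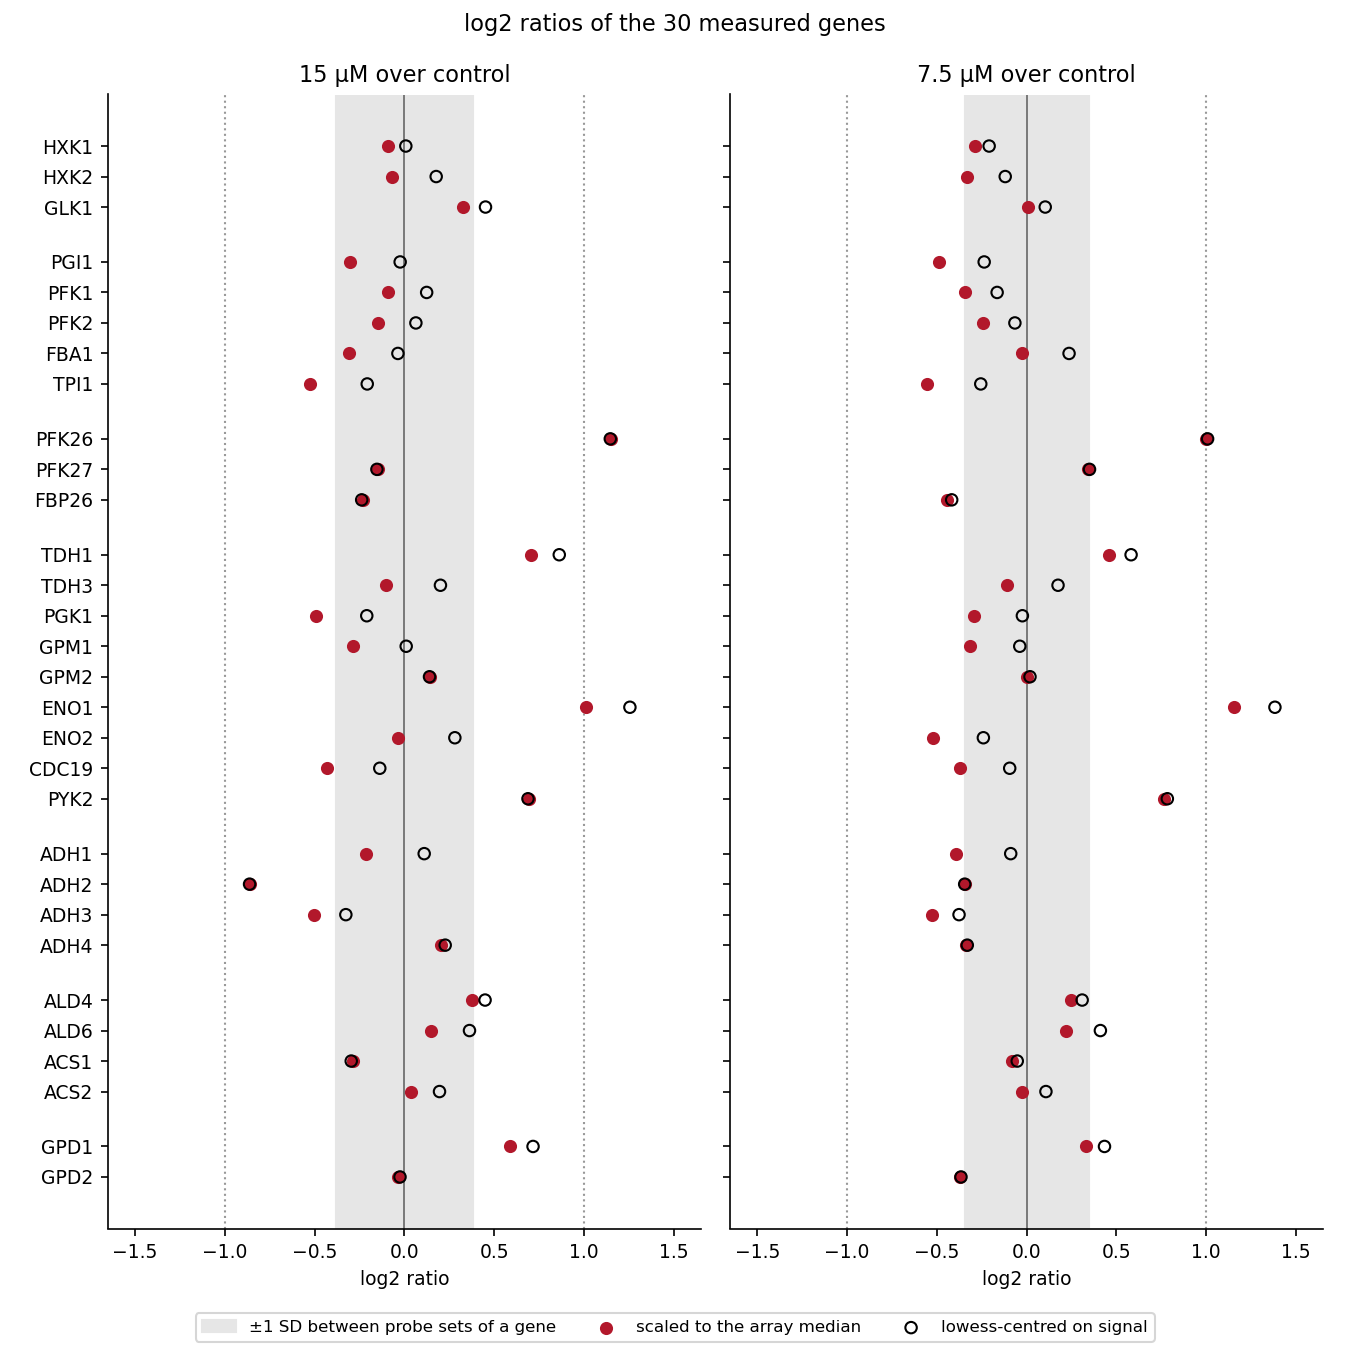
log2 ratios over control of the 30 measured genes at 15 µM and 7.5 µM, ordered by role as in the plot of signals. Filled points are scaled to the array median, open points are lowess-centred on signal, the grey band is 1 SD between probe sets of a gene (0.38 and 0.34), and dotted lines mark 2-fold. Centring moves the bright genes to the right by up to 0.33 and leaves dim genes such as PFK26, PYK2 and ADH2 in place.

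In lower glycolysis 9 of 10 genes had their own probe set, and all 9 were measured. At 15 µM 4 lay above 0 and 5 below, and 3 were at least 1.5-fold higher (TDH1, ENO1, PYK2). The remaining gene above 0, GPM2, passed the floor only at 15 µM and so could not lie below 0. TDH1, TDH2 and TDH3 encode glyceraldehyde-3-phosphate dehydrogenase, of which Tdh3 is the main isozyme and Tdh1 is known to be made in stationary phase and under stress. TDH1 had signals of 824 at 15 µM, 694 at 7.5 µM and 505 in the control, log2 ratios of 0.71 and 0.46. The 3 arrays stood in the order of the dose, but the log2 ratio between the doses, 0.25, was within the SD of 0.29 between probe sets.

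TDH3 had 2601, 2588 and 2792 on the same arrays, a spread smaller than the yardstick, with log2 ratios of -0.10 and -0.11, and 0.20 and 0.17 after centring. The probe set shared by TDH2 and TDH3 read 2289, 2425 and 3165, and the one shared by all 3 copies read 2071, 2017 and 2622. Both shared sets were highest in the control, with log2 ratios of -0.47 and -0.34 at 15 µM and -0.38 each at 7.5 µM. After lowess centring these became -0.16 and -0.05 at 15 µM, and -0.10 and -0.11 at 7.5 µM. Since the copies are near-identical, cross-hybridisation makes the value of each TDH gene uncertain.

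ENO1 and ENO2 encode enolase, and Eno2 is the isozyme that glucose induces. ENO1 had signals of 2160 at 15 µM, 2385 at 7.5 µM and 1072 in the control. Both tomatidine arrays were about equal and lay 2.02-fold and 2.23-fold above the control. In its bin of 237 bright genes ENO1 ranked 3rd at 15 µM and 2nd at 7.5 µM. Its log2 ratios were 1.01 and 1.15, and 1.26 and 1.38 with lowess centring. Under the other scalings, floors and probe averages that were run, its lowest values, relative to the median gene for the spikes, were 1.01 and 1.15.

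ENO2 had 3049, 2177 and 3125, so that the 15 µM array was near the control and the 7.5 µM array lower, with log2 ratios of -0.04 and -0.52, and 0.28 and -0.24 after centring. Between the doses ENO2 had the second highest ratio of the 237 genes, 0.49 in favour of 15 µM. Another probe set, shared by both enolase genes, read 1842, 2195 and 2247, with log2 ratios of -0.29 and -0.03. It did not show the difference that the ENO1 probe set showed. The single-gene probe sets of ENO1, ENO2 and TDH3 are of a type with fewer unique probes than the plain one, so the ENO1 call rests on 1 probe set of that type and is uncertain.

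CDC19 and PYK2 encode pyruvate kinase, the last step, and Pyk2 is the minor isozyme, known to be repressed by glucose. CDC19 had signals of 2137 at 15 µM, 2226 at 7.5 µM and 2881 in the control, with log2 ratios of -0.43 and -0.37, and -0.14 and -0.09 after centring. PYK2 had 44.3, 46.5 and 27.4, which is 1.62-fold and 1.70-fold above the control. The isozymes differed from each other by 1.12 log2 units at 15 µM and 1.13 at 7.5 µM, or 0.83 and 0.88 after centring. PYK2 is dim, and with the floor at the 60th percentile its ratios were 0 and 0.03.

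PGK1, phosphoglycerate kinase, had 1875, 2151 and 2638, and GPM1, phosphoglycerate mutase, had 2274, 2229 and 2771. Both were highest in the control, and the log2 ratios of -0.49 and -0.29 at 15 µM became -0.21 and 0.01 with centring. GPM2, a GPM1 homolog, had 20.2 at 15 µM, 11.2 at 7.5 µM and 6.98 in the control. Only the first is above the floor, so the fold is at least 1.11. Its log2 ratio at 15 µM was 1.53 with a floor at the 20th percentile and 1.46 without one.

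**Figure D4:**
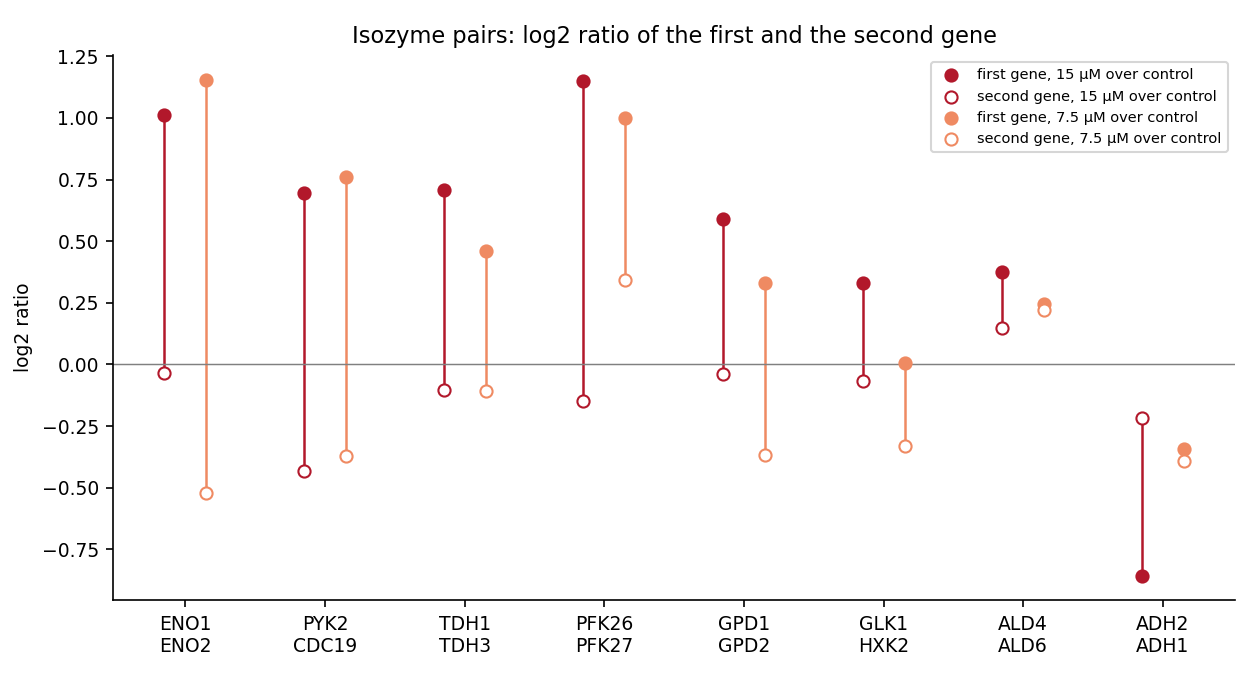
log2 ratio over control of each gene of 8 isozyme pairs, with the first gene of a pair as a filled and the second as an open point, at 15 µM and 7.5 µM. In ENO1 and ENO2, PYK2 and CDC19, TDH1 and TDH3, PFK26 and PFK27, and GPD1 and GPD2 the first gene lies above the second at both doses. The differences are 0.57 to 1.68 log2 units, or 0.41 to 1.62 after lowess centring, and the ENO1 value is uncertain. ADH2 lies below ADH1 at 15 µM. The other pairs of the 14 compared are not drawn. At 15 and 7.5 µM, HXK1 minus HXK2 was -0.02 and 0.04, ACS1 minus ACS2 -0.32 and -0.06, and ADH3 minus ADH1 -0.29 and -0.14. PFK1 minus PFK2 was 0.06 and -0.10, GLK1 minus HXK1 0.42 and 0.30, and GPM2 minus GPM1 0.43 and 0.31.

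Ethanol is made from acetaldehyde by Adh1, while Adh2 oxidises ethanol and is known to be repressed by glucose. Adh3 is the mitochondrial isozyme. ADH1 had signals of 3147 at 15 µM, 2786 at 7.5 µM and 3656 in the control. Its log2 ratios were -0.22 and -0.39, and 0.11 and -0.09 after centring, so its direction at 15 µM depended on the scaling. ADH2 had 33.3, 47.5 and 60.3, in falling order with the dose, and was 1.81-fold lower at 15 µM and 1.27-fold lower at 7.5 µM. It ranked 15th from the bottom of 472 genes in its bin at 15 µM, and its log2 ratio there was -0.40 with the higher floor. ADH1 and ADH2 are close in sequence, so the value of ADH2 is uncertain.

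ADH3 had 666, 654 and 944, with log2 ratios of -0.50 and -0.53, and -0.33 and -0.38 after centring. Both tomatidine arrays were about equal and below the control under every scaling relative to the median gene. ADH4 had 148, 102 and 128 on its brighter probe set, lowest at 7.5 µM. A second ADH4 probe set lay between 0.39 and 8.33 and was never measurable. The pyruvate decarboxylase gene PDC1, one step before ADH1, had 1929, 1878 and 2923, with log2 ratios of -0.60 and -0.64, and -0.31 and -0.37 after centring.

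Acetaldehyde is also oxidised to acetate by the aldehyde dehydrogenases Ald6, of the cytosol, and Ald4, of mitochondria, and acetate is activated by Acs1 and Acs2. ALD4 had signals of 338 at 15 µM, 309 at 7.5 µM and 261 in the control. ALD6 had 1166, 1224 and 1051. Both genes were lowest in the control, with log2 ratios of 0.37 and 0.25 for ALD4 and 0.15 and 0.22 for ALD6. These are within the SD between probe sets. After centring, ALD4 at 15 µM had 0.45 and ALD6 at 7.5 µM had 0.41, both beyond it. A second ALD6 probe set lay between 0.39 and 1.25, under the floor. ACS2 had 683, 654 and 666 and was nearly level, with log2 ratios of 0.04 and -0.03. ACS1, which glucose is known to repress, had 22.0, 25.3 and 26.9, close to the floor.

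Glycerol formation starts with the glycerol-3-phosphate dehydrogenases Gpd1, known to be induced by osmotic stress, and Gpd2, known to be induced without oxygen. GPD1 had signals of 616 at 15 µM, 515 at 7.5 µM and 410 in the control. The arrays stood in the order of the dose, at 1.503-fold and 1.26-fold over the control, and GPD1 ranked 14th of 236 genes in its bin at 15 µM. Its log2 ratio between the doses, 0.26, was within the SD of 0.29 between probe sets. GPD2 had 79.0, 62.8 and 81.1, with log2 ratios of -0.04 and -0.37. The ratio of GPD1 exceeded that of GPD2 by 0.63 at 15 µM and 0.70 at 7.5 µM.

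Of 10 further glycerol genes, 8 were measured, and 1 was called. GPP2, which encodes an isoform of the glycerol-3-phosphatase that completes glycerol synthesis, had signals of 285 at 15 µM, 160 at 7.5 µM and 58.9 in the control. It was 4.83-fold and 2.72-fold higher than in the control, in the order of the dose. Its log2 ratios were 2.26 to 2.37 and 1.41 to 1.53 over the settings run, with the spike scaling taken relative to the median gene. The other phosphatase gene, GPP1, had 1321, 1006 and 1098, with log2 ratios of 0.27 and -0.13. GUT2, the mitochondrial dehydrogenase of glycerol use, was lowest at 15 µM among the 8, at -0.37, and had -0.92 at 7.5 µM. The median over the 8 was 0.21 at 15 µM and 0.09 at 7.5 µM.

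Gluconeogenesis bypasses the irreversible steps of glycolysis through fructose-1,6-bisphosphatase and phosphoenolpyruvate carboxykinase. FBP1 had scaled signals of 9.83, 4.24 and 6.35 at 15 µM, 7.5 µM and in the control, and PCK1 had 5.35, 7.50 and 9.16. All 6 values are under the floor, so neither gene was measurable in any condition and no fold is given. Of 12 genes of the glyoxylate cycle and other functions that glucose represses, 6 were measured and none was called at either dose. CIT2, peroxisomal citrate synthase, was highest at 0.98 and 0.72. At 15 µM it passed 2-fold with lowess centring (1.005), the values as deposited (1.08) and spikes relative to the median gene (1.06). YAT1, a carnitine acetyltransferase, was lowest at -0.78 and -0.53.

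Over the 8 lists of regulators and adjoining pathways together, the glycerol and glyoxylate lists included, 5 of 54 measured genes were 2-fold higher at 15 µM, or 9.26%, against 2.73% of all measured genes, and none was 2-fold lower. At 7.5 µM 3 were higher, against 1.99%, and 1 was lower, against 0.614%. Between the doses 3 were higher at 15 µM, BDH2, NQM1 and RGT1, against 0.72%. At 7.5 µM BDH2 (18.1) and NQM1 (12.8) were under the floor and RGT1 (20.1) was just above it. NQM1 passed the floor only at 15 µM. The lists were chosen with earlier results of these data known, so these shares do not test for an excess. Of the 5 genes higher at 15 µM, NQM1 and MIG3 were under the floor on the control array. Of 6 activator genes of glycolysis all were measured and none was called. TYE7 was highest, with signals of 57.9, 54.4 and 35.1 and log2 ratios of 0.72 and 0.63, while GCR1 had -0.06 and -0.08. GCR2 was lowest at 15 µM, at -0.57, with signals of 24.6, 36.6 and 36.7, and had -0.29 with the mean of its probe sets. TYE7 had 0.35 and 0.26 with the floor at the 60th percentile, where GCR2 was not measured. Of 13 regulators of glucose repression 10 were measured. MIG3, which encodes a transcriptional repressor, was at least 2.06-fold higher at 15 µM, and RGT1, a repressor of hexose transporter genes, was 2.50-fold lower at 7.5 µM and 1.23-fold lower at 15 µM, a 2.03-fold difference between the doses. MTH1, which acts with Rgt1, was lowest at 15 µM, at -0.77. With the floor at the 60th percentile MIG3 was not measured and RGT1 had a log2 ratio of -0.14 at 7.5 µM. The RGT1 difference between the doses was below 2-fold with quantile normalisation (0.976), with no floor (0.999) and with the higher floor (0).

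In the pentose phosphate pathway 10 of 12 genes were measured, with medians of 0.14 at 15 µM and 0.03 at 7.5 µM. NQM1, a transaldolase copy, was at least 2.49-fold higher at 15 µM than on either other array, and RPE1 was lowest at -0.73. Among 9 further alcohol and aldehyde dehydrogenase genes 7 were measured and all 7 lay above 0 at 15 µM, beside 46.3% of all measured genes. Of these, ADH7 passed the floor only at 15 µM (22.2, against 11.6 at 7.5 µM and 17.2 in the control), so its sign was set by the filter. With spike scaling, 6 of the 7 lay above the median gene at 15 µM. At 7.5 µM 3 of the 7 lay above 0 and 3 below. ADH5 had signals of 82.1, 120 and 33.5, which is 2.45-fold and 3.57-fold over the control, the first below 2-fold (0.85 on the log2 scale) with the higher floor, and SFA1 was lowest at 0.05. BDH2 was at least 2.22-fold higher at 15 µM than at 7.5 µM, and with the higher floor neither it nor NQM1 was measured. With spike scaling, relative to the median gene, NQM1 and MIG3 had log2 ratios of 0.93 and 0.66 at 15 µM, below the 2-fold call. Of the relatives of hexokinase, enolase and mutases 4 of 7 were measured, and PGM2, phosphoglucomutase, was called at both doses, with log2 ratios of 1.91 and 1.60, while PGM1 was lowest at -0.22. The pyruvate decarboxylase list, which includes PDC2 although it does not encode the enzyme, had 3 of 4 genes measured and none called. At 15 µM PDC2 was highest at -0.08, and the enzyme genes PDC5 and PDC1 had -0.52 and -0.60.

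**Figure D5:**
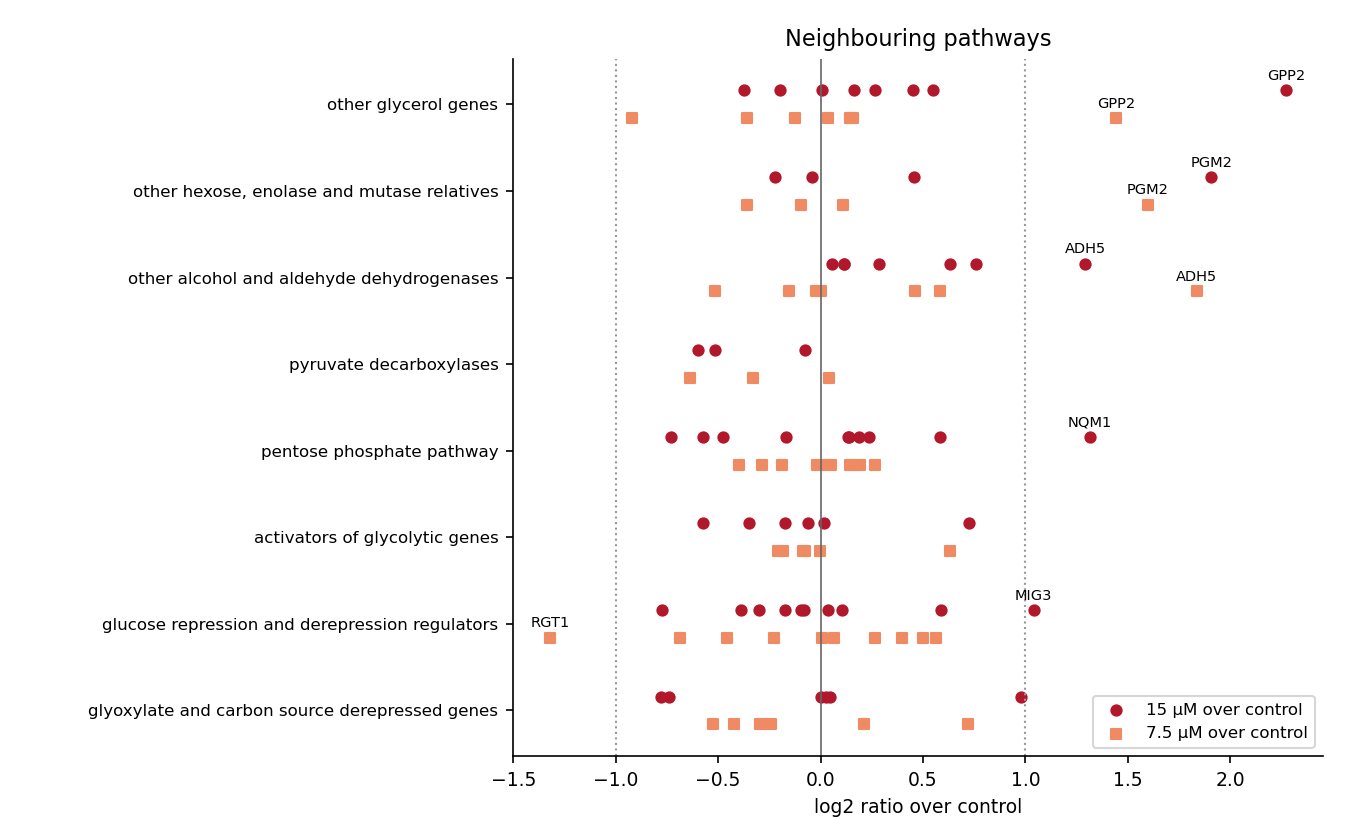
log2 ratio over control of the measured genes in 8 lists of adjoining pathways and regulators, at 15 µM (circles) and 7.5 µM (squares), with dotted lines at 2-fold and names on genes past them. GPP2, PGM2 and ADH5 are past 2-fold at both doses, NQM1 and MIG3 only at 15 µM with the control array under the floor, and RGT1 only at 7.5 µM.

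Compared directly, 21 of the 30 genes lay above 0 at 15 µM over 7.5 µM, beside 48.1% of all measured genes. The 21 include GPM2, which passed the floor only at 15 µM and so could not lie below 0. The median of the 30 was 0.11 on the log2 scale against 0.00 over all measured genes. Values ran from -0.51 for ADH2 and -0.49 for PFK27 to 0.54 for ADH4, 0.49 for ENO2, 0.33 for GPD2 and 0.32 for GLK1. These 6 of 30 genes were beyond the SD of 0.29 between probe sets, 4 above and 2 below, beside 15.5% and 16.8% of all measured genes. With the floor at the 60th percentile ADH2 and PFK27 had -0.06 and -0.02, while ENO2, GPD2 and GLK1 were unchanged. Averaged with its second probe set, which was never measurable, ADH4 had 0.27. All 3 hexose kinase genes lay above 0, at 0.20 to 0.32, and 4 of 5 upper glycolysis genes did. This comparison does not involve the control array, and in it the 237 brightest genes had a median of -0.02.

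The 3 arrays also differed in ways beyond these genes. The scaled spike signals of the control array were 1.78 times those at 15 µM and 1.61 times those at 7.5 µM. For ACT1, the actin gene, the 3' probe set over the 5' one, which is higher in degraded RNA, gave 1.47 at 15 µM, 1.80 at 7.5 µM and 1.63 in the control. The part of either in the results was not tested.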

How the data were processed

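The authors deposited linear intensity values, 1 for each probe set on each of the 3 arrays. How they summarised, background-corrected and scaled it is not given in the sources used here. A common scaling is visible in the values, as the mean after leaving out the 2% at each end was 100.1 on all 3 arrays, and it hides any change in total messenger RNA.

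Here, signals were multiplied by 0.974 (15 µM), 0.986 (7.5 µM) and 1.04 (control) to give the 9275 probe sets that are not controls 1 median, floored at the 40th percentile and put on the log2 scale. For a gene with several single-gene probe sets the brightest was used. Symbols came from the platform annotation, matched by gene identifier to the R64 gene table. Every listed gene is named. From other lists the called genes and the highest and lowest ratio at 15 µM are named, and GPP1 and GCR1 were added after their values were seen. Genes and lists were chosen with earlier results of these data known. Lowess used a span of 0.3. A trial of the fold rule on simulated data is not reported here and does not stand in for replicates. The tools were Python 3.11.15 with statsmodels 0.14.6, pandas 2.3.3, numpy 2.4.6 and matplotlib 3.10.9. Alternatives were other scalings, floors, probe set rules and fold limits.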

Additional observations from a re-analysis of the deposited data

How the results depend on the processing

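With spike scaling the median log2 ratio of the 30 genes was 0.74 at 15 µM, 0.39 at 7.5 µM and 0.27 between the doses, and 8 and 6 genes were at least 2-fold higher than in the control, in step with the shift of all genes. At 15 µM the median of -0.09 became 0.0074 with the values as deposited, 0.10 with quantile normalisation, 0.12 with lowess centring and -0.067 with the floor at the 60th percentile. At 7.5 µM the median of -0.27 became -0.19, -0.012 and -0.045 with those scalings, -0.21 with the mean of probe sets, and -0.29 with either other floor or plain probe sets only. Between the doses it was 0.10 to 0.13 under the settings other than the spikes. At 15 µM the count of 2 higher genes became 3 without a floor or with one at the 20th percentile, as GPM2 passed 2-fold, 1 with the floor at the 60th percentile, which took PFK26 to 0.51, and 1 with plain probe sets only, since ENO1 has none. It became 5 at 1.5-fold and 0 at 3-fold, and 1 gene was lower at 1.5-fold. At 7.5 µM the count of 1 became 2 with the values as deposited and with lowess centring, as PFK26 passed 2-fold, 0 with plain probe sets, 3 at 1.5-fold and 0 at 3-fold. Between the doses no setting gave a call. No paired analysis was possible because each condition has 1 array. Genes near the floor, such as GPM2, PYK2, ACS1 and PFK26, are limited by signal over background.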
